A study of Mus musculus with 8 samples.

Results

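A group of 280 genomic regions is described by comparing a leukaemia clone supplied with wild-type PU.1 with a control clone. In each region a PU.1 peak was called only in the clone with wild-type PU.1. It lay over a CEBPA call found there only in the control clone. A region was included when a PU.1 peak of the PuER line overlapped no PU.1 peak of the empty-vector (EV) line, overlapped a CEBPA peak of the EV line and overlapped no CEBPA peak of the PuER line, with 1 bp counted as overlap. These regions, the members, made up 2.20% of the 12714 PU.1 peaks without an EV counterpart (95% exact interval 1.95–2.47%) and 1.79% of all 15683 PU.1 peaks of that line.

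X18.1.1 is a radiation-induced mouse acute myeloid leukaemia (AML) cell line in which one Pu.1 allele is deleted and the other is mutated by an amino acid substitution that affects DNA binding and by a deletion in the PEST region. Both lines compared are single clones of X18.1.1 and keep this mutant PU.1. The EV clone carried an empty retroviral vector, the PuER clone carried wild-type PU.1 fused to an oestrogen receptor domain that responds to 4-hydroxytamoxifen (OHT), and both were held in 100 nM OHT for 2 h. ChIP-Seq, which sequences the DNA pulled down with an antibody to a protein, gave 1 library for each antibody and clone, with 5288 and 15683 PU.1 peaks and 26119 and 20583 CEBPA peaks in EV and PuER, respectively. The PU.1 antibody was used on cells that hold both mutant and fusion PU.1, so a peak in PuER does not tell which of them was bound. With no replicates, clone and transgene cannot be told apart, no p-value is given, and every interval covers counting error over regions only. A CEBPA call termed lost or kept was missing or present in PuER, and in these lists no clone was followed over time. The lists are coordinates without heights or read counts, so a missing call does not show that binding was absent and the depth of each library is unknown.

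PU.1 is an ETS-family transcription factor that binds sites with a GGAA core and is required for the monocytic, granulocytic and B-lymphoid lineages. CEBPA is a basic leucine zipper factor that binds as a dimer to sites with TTGC and GCAA arms and drives progenitors towards granulocytes and monocytes. The pair bind side by side at many myeloid enhancers, often together with RUNX1, AP-1 or IRF factors.

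The DNA under the members where an ETS site and a CEBP site lay closest together is shown first, because there both factors have a recognisable site in the stretch covered by both peaks. Members that overlap an untranslated region are not shown, among them M156 at Cd82 and M186 at Efcab14. In each of these the site centres were 3 bp apart and the sites shared 4 bases. Each sequence spans the 80 bp about the midpoint of the nearest ETS and CEBP pair, not about the PU.1 peak centre. In M84 the PU.1 peak centre lies outside the 80 bp shown. All are read on the plus strand of GRCm38 (mm10), and the capitals mark every exact match to GGAAGT (ETS) or TTGCNNAA (CEBP) on either strand. M and a number only name a member.
M160, chr2:128203882-128203961, assigned to Bcl2l11: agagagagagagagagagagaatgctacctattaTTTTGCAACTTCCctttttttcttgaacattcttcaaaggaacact
M84, chr13:94159716-94159795, intron of Lhfpl2: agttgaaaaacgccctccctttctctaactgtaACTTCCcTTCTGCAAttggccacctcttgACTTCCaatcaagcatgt
M168, chr2:181495931-181496010, between Abhd16b and Tpd52l2: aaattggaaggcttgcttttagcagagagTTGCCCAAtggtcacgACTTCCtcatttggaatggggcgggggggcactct
M10, chr1:97038088-97038167, assigned to Slco6c1: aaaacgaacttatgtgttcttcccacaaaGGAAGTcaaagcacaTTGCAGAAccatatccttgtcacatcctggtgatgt
M172, chr3:21963241-21963320, assigned to no gene: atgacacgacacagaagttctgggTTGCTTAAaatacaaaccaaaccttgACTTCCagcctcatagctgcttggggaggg
M92, chr14:79441644-79441723, between Kbtbd7 and Kbtbd6: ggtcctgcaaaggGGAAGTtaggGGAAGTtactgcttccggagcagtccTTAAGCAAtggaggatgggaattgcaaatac
The centres of the nearest ETS and CEBP sites were 6, 8, 15, 16, 25 and 27 bp apart in these members, in the order shown. In M160, near Bcl2l11, which encodes the pro-apoptotic protein BIM, both sites shared 1 base, and the region also lies within the annotated non-coding genes Gm14005 and Gm14009.

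Such pairs were not typical of the members. An ETS and a CEBP site both lay in the stretch common to the PU.1 and the CEBPA peak in 28 of 280 members (10.0%, 6.75–14.1%). The same was found in 434 of the 2027 new PU.1 peaks (called in PuER and not in EV) whose CEBPA call was present in both lines (21.4%, 19.6–23.3%), which are called retained regions. The centres of the nearest pair of sites were a median of 44.5 bp apart in the 28 members (quartiles 26.5 and 105.25 bp) and 56.5 bp in the 434 retained regions (quartiles 28 and 96.75 bp). Sites within 20 bp of each other were found in 6 of the 28 members and 85 of the 434 retained regions, so the spacing ranges of both groups overlapped widely.

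The calls that chose the members are given as a description. Of the PuER PU.1 peaks, 81.1% overlapped no EV PU.1 peak, and 18.1% of these new peaks overlapped an EV CEBPA peak. Of the EV CEBPA peaks, 30.7% overlapped no PuER CEBPA peak. Among the 2307 new PU.1 peaks at an EV CEBPA peak, the 280 members amounted to 12.1% (10.8–13.5%), and the other 2027 were the retained regions. The CEBPA call was missing in PuER at 190 of 1768 PU.1 peaks shared by both lines (10.7%, 9.34–12.3%) and at 298 of 1263 PU.1 peaks called only in EV (23.6%, 21.3–26.0%). It was missing for 7267 of 20771 EV CEBPA peaks that overlapped no PU.1 peak (35.0%, 34.3–35.6%). The share at new PU.1 peaks was thus near that at shared PU.1 peaks and well below that of CEBPA peaks away from PU.1. The members accounted for 266 of the 8021 EV CEBPA peaks without a PuER call (3.32%).

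**Figure D1:**
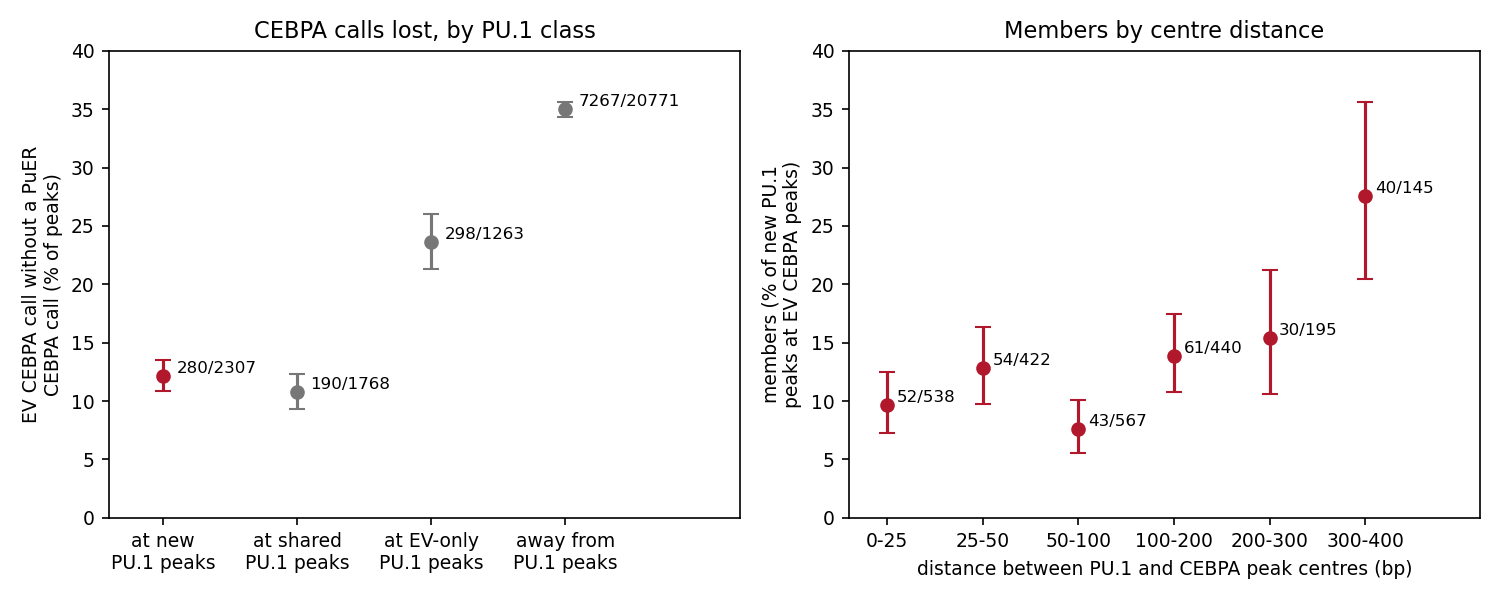
The left plot gives the percentage of EV CEBPA calls without a PuER CEBPA call (y axis) at new, shared and EV-only PU.1 peaks (counted as PU.1 peaks) and for CEBPA peaks away from PU.1, and the right plot gives the members as a percentage of new PU.1 peaks at EV CEBPA peaks by the distance between the peak centres in bp. Points are shares with exact 95% intervals and counts beside them: new (12.1%) and shared (10.7%) PU.1 peaks lie close together, CEBPA peaks away from PU.1 lie highest (35.0%), and the highest distance bin holds 40 of 145 (27.6%).

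The label of a lost CEBPA call did not hold for every member. In 13 members (4.64%, 2.49–7.81%) the EV CEBPA peak still overlapped a PuER CEBPA peak that lay just beyond the PU.1 peak. All 13 had PU.1 and CEBPA centres 329 to 398 bp apart. In the other 267 the CEBPA peak itself had no PuER counterpart, and centre distances and neighbouring peaks are given for these as well. No member overlapped more than 1 EV CEBPA peak, and the 280 members had 279 distinct CEBPA peaks because a pair of them shared one.

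The edges of the rule fell as follows. A PuER CEBPA peak began or ended within 100 bp of 14 members, within 500 bp of 38 and within 10000 bp of 161. An EV PU.1 peak edge lay within 100 bp of 1 member and within 500 bp of 3. The overlap with the EV CEBPA peak was 50 bp or less in 24 members and at least 200 bp in 210, and 47 new PU.1 peaks outside the group lay within 50 bp of an EV CEBPA peak edge. Of the retained regions, 48 overlapped their PuER CEBPA peak by 50 bp or less. When every PuER CEBPA and EV PU.1 peak had to be more than 500 bp away, 242 members were left.

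The PU.1 peak and the EV CEBPA peak of a member were often centred on nearly the same DNA. Their centres were a median of 85 bp apart (95% interval 65–108 bp, quartiles 35.75 and 201.75 bp, range 1 to 398 bp), against 64 bp in the retained regions (59–67 bp, quartiles 27 and 124 bp). Centres lay within 50 bp in 37.9% of members and 42.1% of retained regions, a difference of −4.27 percentage points whose 95% interval, −10.2 to 1.91, includes 0. Centres lay within 100 bp in 53.2% and 68.0%, a difference of −14.8 points (−20.9 to −8.65). They were over 200 bp apart in 25% and 13.3%, a difference of 11.7 points (6.72 to 17.2), and over 300 bp apart in 14.3% and 5.18%, a difference of 9.11 points (5.34 to 13.8). Part of this follows from the rule, which reads both CEBPA calls at the PU.1 peak. In the 267 members whose CEBPA peak itself had no PuER counterpart, the median was 76 bp (62–103 bp). Centres lay within 50 bp in 39.7% of these, a difference of −2.43 points from the retained regions (−8.51 to 3.91), and within 100 bp in 55.8%, a difference of −12.2 points (−18.5 to −5.99). They were over 200 bp apart in 21.3%, a difference of 8.03 points (3.28 to 13.5), and over 300 bp apart in 10.1%, a difference of 4.93 points (1.69 to 9.22).

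The extremes of this range are shown with the same capitals, here as the 80 bp about the PU.1 peak centre. In M152, in an intron of the kinesin gene Kif5c, the centres were 1 bp apart and the central 80 bp held a CEBP site and no GGAAGT. In M209, in an intron of St7, the centres were 398 bp apart, the peaks shared 2 bp, the EV CEBPA peak still overlapped a PuER CEBPA peak and no ETS or CEBP match lay in the window.
M152, chr2:49717724-49717803: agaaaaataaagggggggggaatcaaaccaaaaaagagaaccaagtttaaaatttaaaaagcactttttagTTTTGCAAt
M209, chr6:17727899-17727978: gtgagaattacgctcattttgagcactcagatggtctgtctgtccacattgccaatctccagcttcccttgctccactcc

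**Figure D2:**
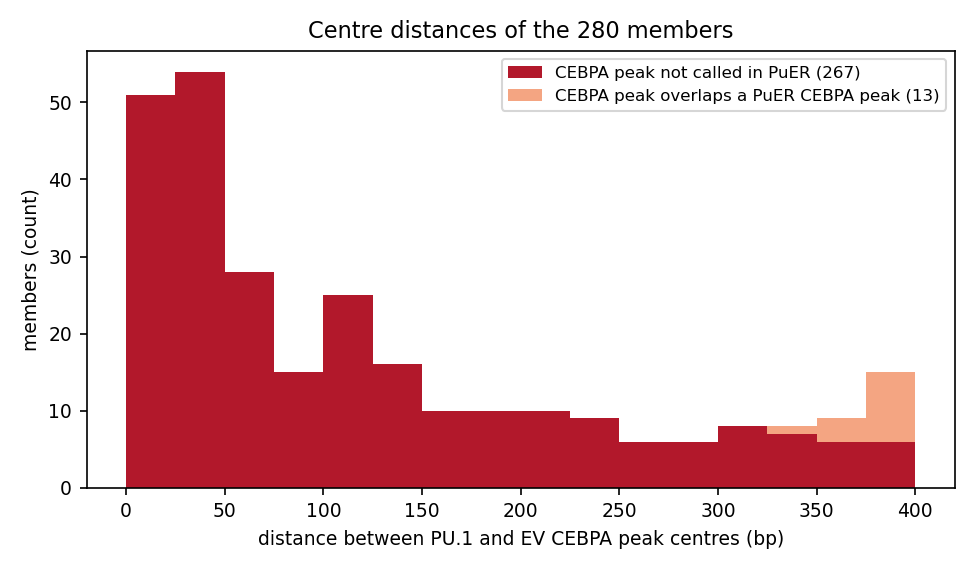
The histogram counts the 280 members (y axis) by the distance in bp between the centres of the PU.1 peak and the EV CEBPA peak (x axis, 25-bp bins), with the 13 members whose CEBPA peak still overlapped a PuER CEBPA peak in the lighter colour. Most members lie under 100 bp, with a median of 85 bp, and the 13 lie between 329 and 398 bp.

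Read by distance, members were 52 of 538 (9.67%) of the new PU.1 peaks centred under 25 bp from their EV CEBPA peak, 54 of 422 (12.8%) between 25 and 50 bp and 43 of 567 (7.58%) between 50 and 100 bp. The corresponding numbers were 61 of 440 (13.9%) from 100 to 200 bp, 30 of 195 (15.4%) from 200 to 300 bp and 40 of 145 (27.6%, 20.5–35.6%) from 300 to 400 bp. The share did not rise evenly, since the lowest value was that between 50 and 100 bp, and the last bin holds all 13 members whose CEBPA peak kept its call. The other 27 members of that bin belong to the 267.

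The centres of the members carried ETS sequence. An exact GGAAGT lay within the 80 bp about the PU.1 peak centre, the central 80 bp, in 102 of 280 members (36.4%, 30.8–42.4%). The windows of the same size centred 2000 bp to either side had 4.82%. The retained regions had 32.4%, and the difference of 4.07 points (−1.73 to 10.2) includes 0. New PU.1 peaks with no CEBPA call in either line (n = 9482) had 45.6%, and here the difference of −9.18 points (−14.7 to −3.31) excludes 0. The longer PU.1-type site GAGGAAGT was present in 10.7% of members, 9.27% of retained regions and 17.3% of new peaks without CEBPA, so that the members were again below the latter, by −6.55 points (−9.75 to −2.31). The shorter core AGGAA was found in 68.9% of members, 65.1% of retained regions and 73.3% of new peaks without CEBPA. ETS sites were gathered at the peak centre, with 25.7 GGAAGT sites per 100 members within 20 bp of the centre and 1.79 in the outer 40 bp of the peak. The 6-base sequences with the largest excess over the flanking windows were AGGAAG (45.4% of members, 11.6% of flanks), GAGGAA (41.4% and 8.57%) and ACTTCC (36.4% and 4.82%), which is GGAAGT read on the other strand. All 3 overlap one another in a GAGGAAGT site.

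CEBP sites were rarer in the members than in the retained regions. TTGCNNAA lay in the same 80-bp window in 18 of 280 members (6.43%, 3.85–9.97%) and in 316 of 2027 retained regions (15.6%, 14.0–17.2%), a difference of −9.16 points (−12.0 to −5.34). The flanking windows of members had 2.68%. The difference widened as more sequence was read: in the central 200 bp the shares were 14.3% and 35.4%, and in the whole 400 bp they were 21.4% and 47.3%. Against new PU.1 peaks without CEBPA (3.72%), the members were higher by 2.71 points (0.348 to 6.23). The choice of groups favours this direction, since members overlap an EV CEBPA peak and the other group overlaps no CEBPA peak. The composite CEBP-ATF site TGATGCAA, which is bound by dimers of a CEBP and an ATF protein, was found in 0 of 280 members, which allows a share of up to 1.07% by the limit of 3 counts and of up to 1.31% by the exact interval. The retained regions had 1.33%, a difference whose interval includes 0. In the central 200 bp and the whole peak the differences for this site, −3.45 points (−4.34 to −1.92) and −4.01 points (−5.27 to −1.80), exclude 0.

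In windows of 80 bp the contrast was larger about the centre of the EV CEBPA peak. Of the CEBPA peaks of members, 41 of 280 (14.6%, 10.7–19.3%) had a CEBP site in their central 80 bp, against 692 of 2027 (34.1%, 32.1–36.2%) at retained regions, a difference of −19.5 points (−23.7 to −14.4). In longer windows both centres gave like differences, with −22.2 points about the CEBPA centre and −21.1 about the PU.1 centre in 200 bp, and −23.3 and −25.8 in the whole peaks. The CEBPA peaks that lost their call away from PU.1 had such a site in 30.1% (29.0–31.1%), and those that kept it there in 41.0% (40.2–41.8%). The CEBPA peaks of members were thus below the other lost CEBPA peaks too, by −15.4 points (−19.2 to −10.7), though above their own flanking windows (2.68%). In the middle 40 bp there were 10.4 CEBP sites per 100 CEBPA peaks of members and 24.9 per 100 at retained regions, with 1.07 and 1.92 in the outermost 40 bp. The CEBP-ATF composite was likewise rarest in members, with 0.714%, against 3.50% in retained regions and 3.88% in lost CEBPA peaks away from PU.1. Both differences of members (−2.79 points, −3.82 to −0.802, and −3.17 points, −3.87 to −1.27) exclude 0.

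**Figure D3:**
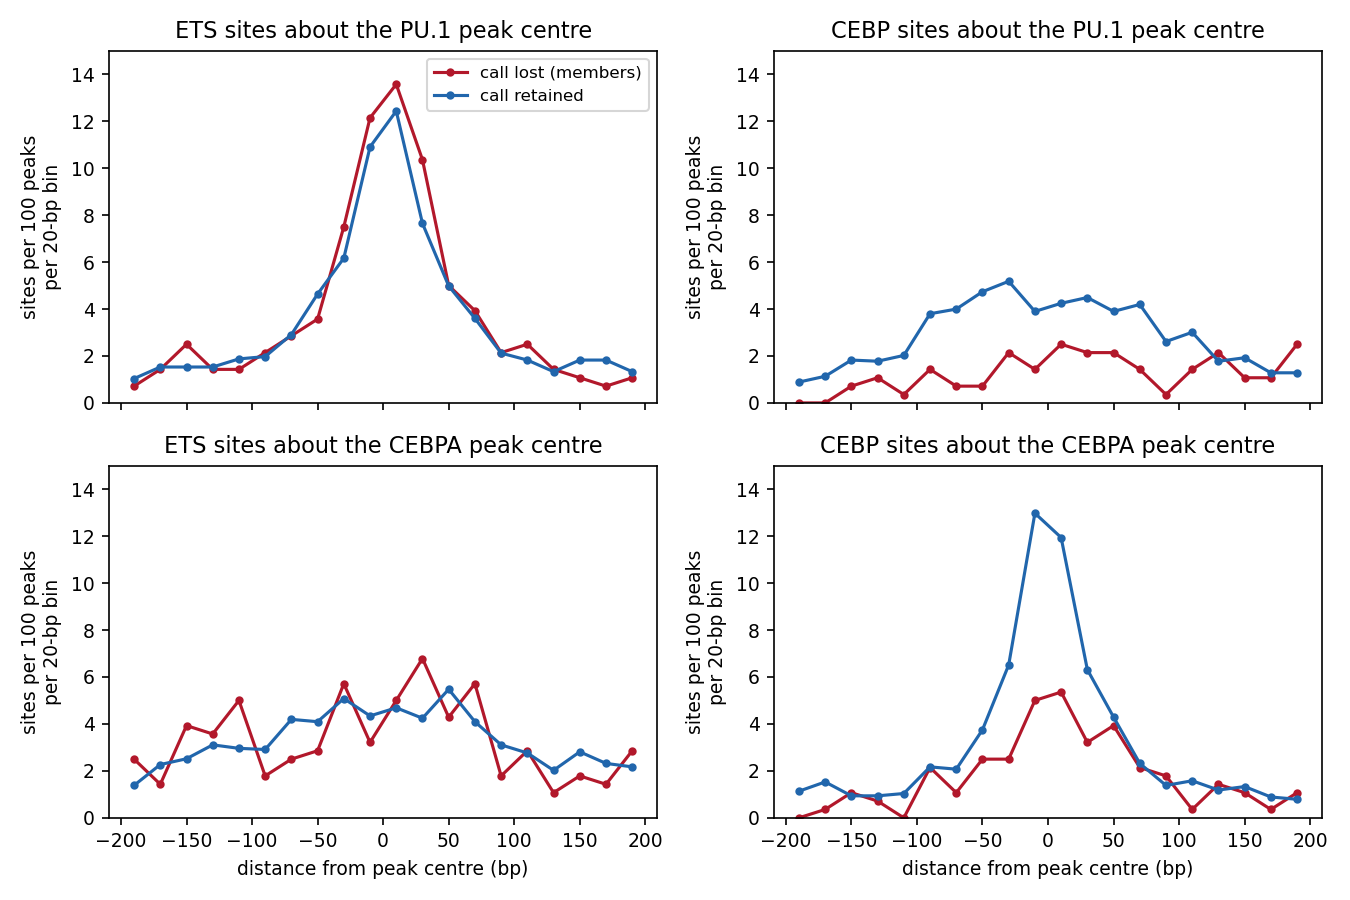
Exact ETS (left) and CEBP (right) sites per 100 peaks in 20-bp bins (y axis) are plotted against the distance in bp from the centre of the PU.1 peak (top) or of the EV CEBPA peak (bottom), for the members (red, n = 280) and the retained regions (blue, n = 2027). The ETS curves nearly coincide at the PU.1 centre (25.7 and 23.3 sites per 100 peaks in the middle 40 bp), while the CEBP curve at the CEBPA centre is lower for members (10.4 against 24.9).

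The lower share of CEBP sites was present at short and at long spacing of the peaks. Where the centres lay within 100 bp, the CEBPA peak had a CEBP site in 17 of 149 members (11.4%) and 470 of 1378 retained regions (34.1%). Where they lay further apart, the counts were 24 of 131 (18.3%) and 222 of 649 (34.2%). Read the other way, 41 of the 733 new PU.1 peaks whose CEBPA peak held a central CEBP site were members (5.59%, 4.04–7.51%), against 239 of the 1574 without one (15.2%, 13.4–17.1%). For CEBPA peaks away from PU.1, the call was missing in PuER for 28.3% of those with and 38.9% of those without a central CEBP site. An ETS site in the PU.1 peak gave less of a split, with members making up 13.5% of new PU.1 peaks that had one (11.1–16.1%) and 11.5% of those that did not (9.94–13.2%).

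Taken as pairs, an ETS site at the PU.1 centre with a CEBP site at the CEBPA centre was found in 15 members (5.36%) and 228 retained regions (11.2%). An ETS site alone was found in 87 members (31.1%) and 428 retained regions (21.1%), and a CEBP site alone in 26 (9.29%) and 464 (22.9%). Neither site was found in 152 members (54.3%) and 907 retained regions (44.7%), so that most members held no exact match in either window.

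RUNX sites (TGTGGT or TGCGGT), bound by RUNX1 in myeloid cells, were more frequent in the members than in new PU.1 peaks without CEBPA. They were present in the central 80 bp of 49 members (17.5%, 13.2–22.5%), 13.7% of retained regions and 9.50% of new PU.1 peaks without CEBPA. The difference from the latter, 8.0 points (3.95 to 12.9), excludes 0, and that from the retained regions, 3.79 points (−0.513 to 8.87), does not. Around the CEBPA centres RUNX sites were found in 18.9% of members and 13.8% of lost CEBPA peaks away from PU.1, a difference of 5.14 points (0.906 to 10.2). ETS sites at those centres were likewise more frequent than away from PU.1, with 19.3% against 8.30% (11.0 points, 6.74 to 16.0), and the retained regions had 16.4%. The choice of groups favours this direction, since the CEBPA peaks of members overlap a PU.1 peak and those away from PU.1 overlap none. AP-1 sites (TGANTCA) lay in 4.64% of PU.1 centres of members, IRF sites (GAAA, 2 further bases and GAAA) in 2.50%, GATA sites (AGATAA) in 2.50% and GC boxes (GGGCGG) in 1.43%, each with a difference from the retained regions whose interval includes 0 in this window. In the whole peak the IRF difference was 3.69 points (0.188 to 8.14) at PU.1 peaks and 4.13 points (0.689 to 8.52) at CEBPA peaks. The GC box difference was 2.25 points (−0.985 to 6.47) at PU.1 peaks and 3.72 points (0.333 to 8.07) at CEBPA peaks. The AP-1 and GATA intervals include 0 at both. GATA sites were rarer in the central 80 bp of members than in their flanking windows of that size (5.71%). The same held for retained regions (2.57% against 4.69%) and new PU.1 peaks without CEBPA (3.35% against 4.99%). The ETS1-type site (CCGGAAGT or CAGGAAGT) was present in 6.07% of members and 4.29% of retained regions. The ETS, PU.1-type and ETS1-type sites contain one another's letters and are not separate counts. In the central 80 bp, 40 differences were computed over 10 sites and 4 pairs of groups, and 12 of their intervals exclude 0. The longer windows, the AGGAA core and the relaxed CEBP site come on top of these 40. None of the intervals is adjusted for the number computed. A match is a description of the letters and does not show that a factor was bound.

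**Figure D4:**
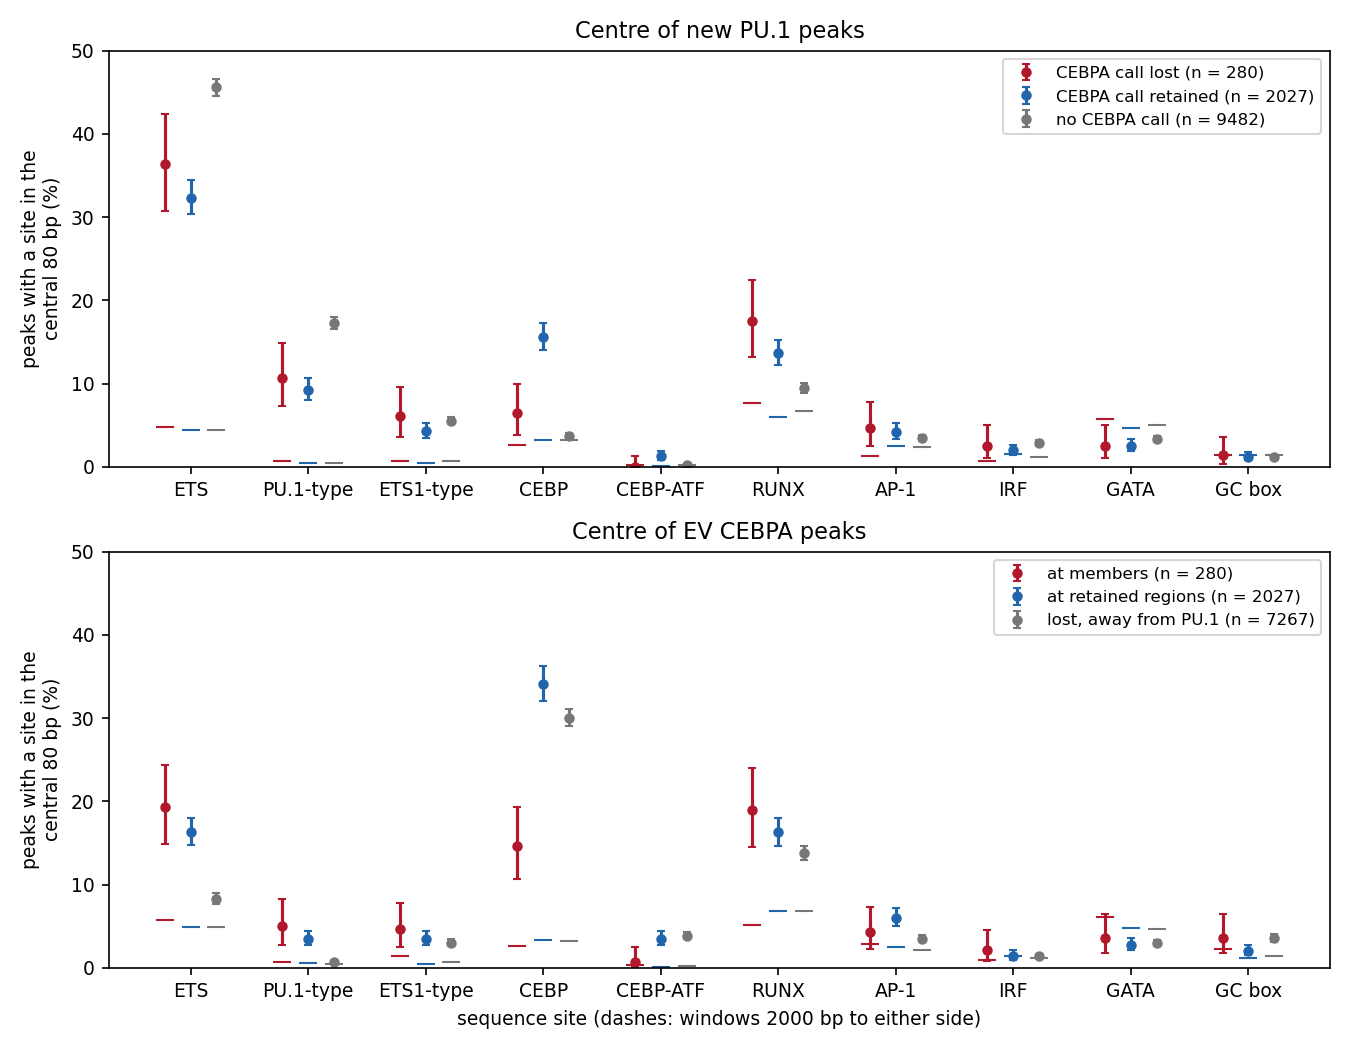
The percentage of peaks with an exact site in the central 80 bp (y axis) is given for 10 sites (x axis), about the centres of new PU.1 peaks (top) and of EV CEBPA peaks (bottom), with exact 95% intervals and with dashes for windows 2000 bp to either side. Members (red) lie near retained regions (blue) for ETS sites (36.4% and 32.4%) and below them for CEBP sites, both at the PU.1 centre (6.43% and 15.6%) and at the CEBPA centre (14.6% and 34.1%).

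The members lay mostly away from gene starts. A promoter position, within 1000 bp of a transcript start of a protein-coding gene, was found for 31 members (11.1%, 7.65–15.3%), against 8.78% of retained regions and 8.55% of new PU.1 peaks without CEBPA. A further 47.5% lay inside genes, 43.2% with the centre in an intron and 4.29% in an exon, and 41.4% lay between genes. The intervals of all differences in position from either group include 0. The median distance to the nearest start was 14473.5 bp (9788–18497 bp) in members and 18873 bp (17374–20802 bp) in retained regions. Base composition was alike, with a median GC content of 46.25% in members and 45.5% in retained regions. Repeats covered at least 50% of the peak in 12 members (4.29%, 2.23–7.37%), 1.43% of retained regions (0.960–2.05%) and 5.28% of new peaks without CEBPA.

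Other called peaks were close by. A CEBPA peak called in both lines lay within 10 kb of 53.2% of members, 46.3% of retained regions and 37.4% of new PU.1 peaks without CEBPA. The difference from the last group was 15.8 points (9.87 to 21.6), and it was 13.5 points (7.47 to 19.5) for the 267 members whose own CEBPA peak had lost its call. The difference from the retained regions, 6.89 points (0.650 to 13.0), fell to 4.61 (−1.74 to 10.9) for those 267. Another new PU.1 peak lay within 10 kb of 37.9% of members and 37.6% of retained regions. Another CEBPA peak without a PuER call lay within 10 kb of 56 members (20%) and of 22.4% of retained regions, and a CEBPA peak called only in PuER lay within this distance of 6.79% and 9.13%. Many members were thus single positions of a locus at which other CEBPA calls were present in both lines.

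Members were found on chromosomes 1 to 19 and X. Chromosome 6 had the highest share, with 29 of its 133 new PU.1 peaks at EV CEBPA peaks (21.8%, 15.1–29.8%), and chromosome 3 the lowest, with 10 of 137 (7.30%, 3.56–13.0%). Both were picked after their values were seen. Away from PU.1 the share of missing CEBPA calls was 36.9% on chromosome 6 (34.2–39.8%) and 30.2% on chromosome 3 (27.4–33.1%). Without chromosome 6, a central CEBP site was present in 13.5% of the CEBPA peaks of members, −20.4 points from the retained regions (−24.6 to −15.1).

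Members were assigned to genes that contained them or, between genes, to the closest gene in either direction up to 50 kb away. This gave 277 of 21951 protein-coding genes (1.26%), and 36 members had none. Of the 277 genes, 86 (31.0%) were also assigned a retained region, against 7.70% of all protein-coding genes. Gene length and density were not matched in these shares. The genes with 2 members were Ankrd44, Phf14, Ripor2, Sdccag8, Sntb1, Spty2d1, St7 and Tmem86a, and none had more. Spty2d1 and Tmem86a lie close together on chromosome 7 and were assigned the same pair of members, M238 and M239. Ankrd44 also held 3 retained regions and 6 new peaks without CEBPA, while Phf14, a chromatin reader with a PHD finger, held neither.

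Lists of blood cell genes were too short to place the members against the background, which was 1.26% of all protein-coding genes with a member and 7.70% with a retained region. No member was assigned to any of 20 granulocyte genes (exact upper limit 16.8%) or of 29 monocyte and macrophage genes (11.9%), and both limits lie above 1.26%. A retained region was assigned to 7 (35%) and 11 (37.9%) of these genes, respectively. None of 18 lymphoid genes and none of the 14 erythroid and megakaryocyte genes found in the annotation had a member, nor did any of them have a retained region. Of 20 stem and progenitor regulators, Ikzf1 and Etv6 had a member (10%, 1.23–31.7%) and 4 had a retained region. Of 20 CEBP, PU.1 and AP-1 factors, Cebpa had a member (5%, 0.127–24.9%) and 6 had a retained region. Of 57 genes named in the study's table of enriched gene terms, Ikzf1, Plek and Rcbtb2 had a member (5.26%, 1.10–14.6%) and 27 had a retained region. These 57 are the part of a longer list of PU.1 target genes that fell in enriched terms, and that list was chosen partly on these libraries and is not independent of them.

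At Cebpa, which encodes the CEBPA protein itself, member M237 (chr7:35156414-35156813) lay 37.3 kb downstream of the start of the gene (chr7:35119293-35121928, plus strand), on the side where an enhancer active in blood progenitors is known. The paper cites earlier work in which PU.1 regulates CEBPA expression through a +37 enhancer of CEBPA. Whether the member coincides with such an enhancer was not examined. Its EV CEBPA peak (chr7:35156456-35156855) was centred 42 bp away, and 1068 bp away a CEBPA peak was called in PuER, where EV had one too. M237 was the only member at a listed gene that had an ETS site in the central 80 bp, and it had 2 and no CEBP site, as its sequence shows in the same capitals.
M237, chr7:35156574-35156653: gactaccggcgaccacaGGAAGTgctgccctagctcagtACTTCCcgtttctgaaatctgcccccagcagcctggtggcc
Slc7a10, which starts 29.8 kb beyond the member, was assigned to it as well.

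Ikzf1 encodes Ikaros, a zinc-finger regulator of lymphoid and progenitor genes. Its member M40 (chr11:11688900-11689299) lay in an intron, 2.655 kb from the nearest transcript start, with PU.1 and EV CEBPA centres 3 bp apart. CEBPA peaks called in both lines lay 1279 and 2866 bp upstream of it, and other PuER PU.1 peaks were centred 2881 bp upstream and 1196 bp downstream. Plek encodes pleckstrin, a protein kinase C substrate of platelets and leucocytes. Its member M41 (chr11:17004817-17005216) was intronic too, with centres 10 bp apart. CEBPA peaks called in PuER without an EV counterpart were centred 1947 and 5487 bp from M41. A further CEBPA peak, at 3697 bp, was called in both lines. The nearest other PuER PU.1 peak was centred 2033 bp away. Neither M40 nor M41 held a GGAAGT or TTGCNNAA match in the windows searched. The 80 bp centred on their EV CEBPA peaks are shown with the AGGAA core in capitals, on either strand. This pair was chosen for printing after their values were seen.
M40, chr11:11689057-11689136: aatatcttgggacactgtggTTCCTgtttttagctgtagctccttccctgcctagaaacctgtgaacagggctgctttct
M41, chr11:17004987-17005066: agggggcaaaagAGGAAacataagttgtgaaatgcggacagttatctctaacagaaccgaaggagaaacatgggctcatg

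The remaining listed genes differed in geometry. Etv6 encodes an ETS-family repressor, and its intronic member M232 (chr6:134158604-134159003) overlapped the EV CEBPA peak by 63 bp with centres 337 bp apart, the widest of the listed genes. No PuER CEBPA peak lay within 10 kb of it, while a further EV CEBPA peak and an EV PU.1 peak did. At Rcbtb2, a gene for an RCC1- and BTB-domain protein, member M91 (chr14:73118839-73119238) lay 3998 bp upstream of the start with centres 93 bp apart. The CEBPA peaks of M91 and M232 each held a central CEBP site. CEBPA peaks called in both lines were centred 1141 and 3628 bp downstream of M91. The listed members thus ranged from nearly coincident peaks to peaks that barely touched.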

How the data were processed

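The authors mapped ChIP-Seq reads to GRCm38 (mm10) and called peaks; the submitters' processing notes name Bowtie2 2.0.6 and MACS2 2.0.10. The deposited peak lists hold only coordinates, with no score, count or other unit; every peak was 400 bp wide. The threshold, and whether reads were shifted or duplicates removed before calling, are not given in the sources used here. Peaks were called per library, and read depth is unknown. The paper also mentions time 0, while the labels give 2 h. H3K27Ac and IgG samples (4 of 8) were not analysed here.

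Overlaps of at least 1 bp were counted in Python 3.11.15 with pysam 0.24.0, scipy 1.17.1, numpy 2.4.6 and pandas 2.3.3, and bedtools 2.31.1 returned the same 280 members. Class assignment and motif search were tested on simulated data. Sites were exact matches on both strands in the central 80 bp, read from the RefSeq GRCm38.p6 genome. Gene positions came from GENCODE vM21. Shares have exact (Clopper-Pearson) 95% intervals, differences have Newcombe intervals, and medians have order-statistic intervals. No test was run. The members, gene lists, sites and alternatives were chosen with earlier results of these data known. The genes to be named were listed genes with a member and genes with at least 2 members. Sequences were those of the 6 members with the nearest ETS and CEBP sites, listed genes with an ETS site and the smallest and largest centre distance, leaving out chromosome 18 and UTRs. Alternatives were other overlap rules, guard distances, windows, promoter widths and assignment distances. Plots used matplotlib 3.10.9.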

Additional observations from a re-analysis of the deposited data

How the results depend on the processing

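The number of members was 239 when overlaps had to cover 50% or more of each peak and 225 with centres within 100 bp. It was 280 on chromosomes 1 to 19, X and Y. Of the 280, 267 were left with the loss also required at the CEBPA peak, and 242 with the 500-bp guard distance. Both of these settings could only remove members, and the retained regions were left unchanged. With centres within 100 bp, members were 14.1% of new PU.1 peaks at EV CEBPA peaks. Longer windows hold more sites: in the central 200 bp and the whole peak, ETS sites were found in 50.4% and 55.4% of members, PU.1-type sites in 15.4% and 18.6%, CEBP sites in 14.3% and 21.4%, and CEBP sites of the CEBPA peaks in 24.6% and 29.3%. The relaxed CEBP site TTNNGNAA, chosen after seeing the data, was found in 28.6% of members and 44.3% of their CEBPA peaks, and the differences from the retained regions were −8.77 and −15.4 points. Promoters of 2500 bp held 20% of members. Genes numbered 226 at 20 kb and 321 at 100 kb. The deficit of CEBP sites against retained regions kept its direction under all alternatives run. The ETS difference from retained regions was −0.98 points in the whole peak and positive under the other alternatives for it, with 0 inside the interval in each window. The guard distance for the CEBPA peaks, the pairs within 100 bp, the set without chromosome 6 and the 267 members used for distances and neighbours were also chosen after seeing the data.

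Without scores, a stricter calling threshold could not be applied, and without read counts a call lost by a small change in signal cannot be told apart from one lost by a large change. No paired analysis was possible because each group had 1 library and the replicate number 1 came only from accession order.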
